A study of Mus musculus with 45 samples.

Results

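Lin28a, Lin28b, Igdcc3, Prtg, Sall4, Mycn and Hmga2 are genes known for their activity in the early embryo, and their RNA was followed here through the ectoderm and mesenchyme of the growing mouse face. The 7 genes were chosen by name with earlier results of these data known, and each had to have a row in the authors' deposited model table, which holds 9626 probe sets, 9395 of them with a variance above the median of all. All 7 were present, through 9 of the 28944 probe sets with a value, because Lin28a and Hmga2 have a pair of probe sets each. The measured values that chose the members are those that gave them a row in that table, nearly all of whose probe sets vary more than the median, and, through the choice of names, their change with age. That change is therefore given as a description with no p-value, while layer, prominence and the differences between layers in the change with age are tested. The variance of the members lay between 0.0473 for Hmga2 probe set 10366645 and 2.00 for Igdcc3, and that Hmga2 probe set was the member closest to the median variance of 0.0414 that a probe set had to exceed to be tested. All 9 exceeded it.

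The study hybridized RNA of C57BL6/J inbred wild-type mouse embryos to Affymetrix Mouse Gene 1.0 ST arrays, 3 biological replicates in each of 15 groups. Tissue of several embryos was pooled for each replicate, and the ectoderm, the surface epithelium, was peeled off the mesenchyme, the loose tissue beneath it, after Dispase II digestion. Ectoderm and mesenchyme of the frontonasal, maxillary and mandibular prominences, the buds that form the midface, upper jaw and lower jaw, were collected at the 2 later ages, E11.5 and E12.5. The youngest groups, of E10.5, were mandibular ectoderm, frontonasal mesenchyme and mandibular mesenchyme, so the full course of 3 ages can be read in the mandibular prominence for both layers and in the frontonasal prominence for mesenchyme. All animals were of 1 genotype, with no treatment.

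LIN28A and LIN28B are RNA-binding proteins that block the maturation of let-7 microRNAs, and in many animals LIN28 is high in early embryos and let-7 rises as tissues mature. Mature let-7 in turn represses messenger RNAs that include Lin28 itself, Hmga2 and Mycn. IGDCC3 and protogenin (PRTG) are cell surface proteins of the family of the netrin receptor DCC, SALL4 is a zinc finger transcription factor of pluripotent cells and early progenitors, MYCN is a growth-promoting transcription factor of embryonic tissue, and HMGA2 is a chromatin protein that binds AT-rich DNA. MicroRNAs were not examined here, so the sequences that follow are background on what LIN28 acts on. RefSeq (GRCm38.p6) lists 8 distinct let-7 5p forms under the Mirlet7 symbols, and all 8 share 1 seed. They are shown because the seed is the part that pairs with a target, and capitals mark bases 2 to 8.
let-7a-5p: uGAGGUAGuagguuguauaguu
let-7g-5p: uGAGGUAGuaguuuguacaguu
let-7d-5p: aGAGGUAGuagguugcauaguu
LIN28 is known to bind a GGAG in the loop of let-7 precursors. Of the 11 let-7 hairpins in the same table, 9 hold the letters GGAG and 2 do not, and 1 of each kind is shown with GGAG in capitals.
Mirlet7g hairpin: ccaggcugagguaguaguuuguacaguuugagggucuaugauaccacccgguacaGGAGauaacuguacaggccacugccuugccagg
Mirlet7b hairpin: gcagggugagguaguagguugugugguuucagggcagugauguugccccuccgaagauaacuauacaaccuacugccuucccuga

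Values are log2 signals, so a difference of 1 is a doubling, and levels are compared only within a probe set. Array medians ran from 5.97 to 6.22, and a probe set counted as detected at a detection p under 0.05, which between 22008 and 26532 probe sets met on each array. Of 45 arrays, 3 stood apart from the other arrays of their group: frontonasal ectoderm E11.5 replicate 2, frontonasal ectoderm E12.5 replicate 3 and maxillary mesenchyme E12.5 replicate 1. Each tested difference whose call changes without them is given both ways. The layers matched their markers: the summed linear signal of 12 epithelial genes was 13951 to 22875 on ectoderm arrays and 674 to 1814 on maxillary and mandibular mesenchyme arrays. Frontonasal mesenchyme carried more of it, 3634 to 5696, and also more of 7 neural tube and olfactory genes, 1235 to 2407 against 235 to 363 in the mesenchyme of the other 2 prominences. Ectoderm carried little mesenchymal signal at E10.5 and more later: the sum of 8 mesenchymal genes was 545 to 867 on its E10.5 arrays and 1199 to 4779 at the later ages, against 8022 to 19328 on mesenchyme arrays. The part of these other cells in the results below was not tested. In such bulk samples, fewer cells of a type and less RNA per cell cannot be told apart.

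Igdcc3 showed the widest change of the 7 genes. Over 6 mesenchyme arrays at E10.5 it ran from 9.82 to 10.68 with a median of 10.46, over 9 at E11.5 from 7.07 to 8.06 with a median of 7.77, and over 9 at E12.5 from 6.37 to 6.82 with a median of 6.61. In mandibular ectoderm the 3 arrays held 10.12, 9.95 and 9.93 at E10.5, 7.85, 7.52 and 7.81 at E11.5, and 6.03, 6.19 and 6.29 at E12.5. The ages did not overlap in either layer. The E12.5 minus E10.5 difference was -3.76 ± 0.11 (SE) in mesenchyme, averaged over the frontonasal and mandibular prominences, and -3.83 ± 0.16 in mandibular ectoderm. These are 13.6-fold and 14.2-fold lower levels at E12.5. Over the same 2 prominences of mesenchyme the step between E10.5 and E11.5 was -2.53 ± 0.11 and the next one -1.23 ± 0.11. With the maxillary prominence, which was not collected at E10.5, the second step was -1.08 ± 0.09.

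Prtg followed the same course over a smaller range. Its mesenchyme median was 8.24 at E10.5, 6.63 at E11.5 and 6.21 at E12.5, and mandibular ectoderm gave 8.46, 8.49 and 8.36 at E10.5, 6.88, 6.77 and 6.88 at E11.5, and 5.92, 6.01 and 6.23 at E12.5. At E12.5 it stood 3.78-fold below E10.5 in mesenchyme (-1.92 ± 0.08) and 5.22-fold below in mandibular ectoderm (-2.38 ± 0.11). Most of the change in frontonasal and mandibular mesenchyme lay in the first step, -1.54 ± 0.08, against -0.38 ± 0.08 in the second, and mesenchyme arrays of E11.5 and E12.5 overlapped.

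Sall4 fell in both steps. Frontonasal mesenchyme read 8.74, 8.83 and 8.74 at E10.5, 7.30, 7.20 and 7.45 at E11.5, and 6.20, 6.40 and 6.08 at E12.5. Mandibular ectoderm read 8.66, 8.86 and 8.42 at E10.5, 7.15, 6.80 and 7.20 at E11.5, and 5.77, 5.87 and 6.31 at E12.5. All arrays of a later age lay below all of the earlier one in these 2 groups. The E12.5 minus E10.5 difference was -2.25 ± 0.11 in mesenchyme, 4.76-fold, and -2.66 ± 0.15 in mandibular ectoderm, 6.34-fold.

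**Figure D1:**
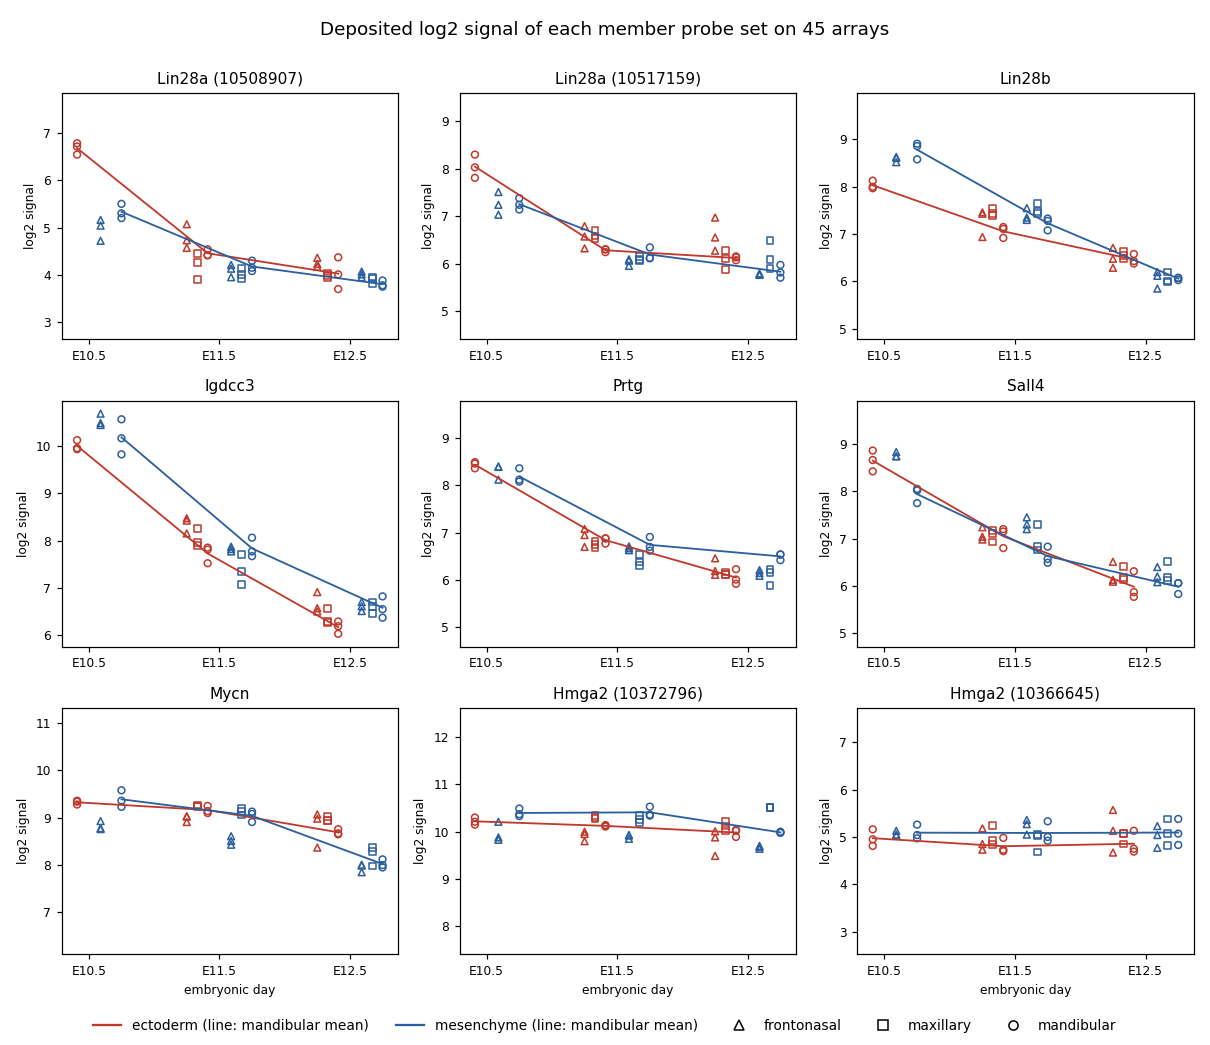
Log2 signal of the 9 probe sets (y axis, the same span in each panel) on the 45 arrays by embryonic day (x axis), with ectoderm in red left of mesenchyme in blue, symbols for the prominences and lines through the mandibular means. Igdcc3, Prtg, Sall4, Lin28b and Lin28a drop with age in both layers, Mycn drops further in mesenchyme, and Hmga2 stays within about 1 log2 unit.

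Because Igdcc3 and Prtg moved together and belong to 1 receptor family, their promoters are shown, each from 250 bases before to 50 after the RefSeq start (GRCm38.p6). Capitals mark each CG.
Igdcc3 promoter, chr9:65140904-65141203, plus strand: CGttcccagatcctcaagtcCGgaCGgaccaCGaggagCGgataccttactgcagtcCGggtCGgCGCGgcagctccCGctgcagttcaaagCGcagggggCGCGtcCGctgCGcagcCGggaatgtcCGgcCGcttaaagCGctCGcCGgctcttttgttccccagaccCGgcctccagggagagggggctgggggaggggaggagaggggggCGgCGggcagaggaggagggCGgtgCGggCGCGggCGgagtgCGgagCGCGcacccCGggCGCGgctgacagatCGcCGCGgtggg
Prtg promoter, chr9:72807024-72807323, plus strand: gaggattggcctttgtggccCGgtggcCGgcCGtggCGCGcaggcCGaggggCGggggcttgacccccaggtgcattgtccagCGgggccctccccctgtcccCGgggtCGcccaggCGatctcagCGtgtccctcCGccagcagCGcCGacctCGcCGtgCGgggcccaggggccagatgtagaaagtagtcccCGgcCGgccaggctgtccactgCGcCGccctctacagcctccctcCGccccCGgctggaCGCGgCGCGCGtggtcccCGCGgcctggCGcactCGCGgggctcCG
The Igdcc3 window holds 38 CG and that of Prtg 35, where the median of 32851 promoters of this length is 7. Their counts exceed those of 95.0% and 93.0% of promoters. The windows of Lin28a, Lin28b, Mycn and Hmga2 hold 10, 8, 14 and 12 CG, and Sall4 was not matched in the table, so 6 of the 7 genes have one.

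Lin28b declined in 2 steps of like size in mesenchyme. Its mesenchyme median was 8.62 at E10.5, 7.35 at E11.5 and 6.07 at E12.5, and in the frontonasal and mandibular prominences together the steps were -1.37 ± 0.08 and -1.26 ± 0.08 and the total -2.63 ± 0.08, or 6.18-fold. No mesenchyme array of a later age reached the lowest of the earlier age. In mandibular ectoderm the arrays held 8.13, 8.0 and 7.97 at E10.5, 6.92, 7.11 and 7.15 at E11.5, and 6.58, 6.38 and 6.43 at E12.5. That is a total of -1.57 ± 0.12, or 2.97-fold.

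Lin28a declined mostly before E11.5, on both of its probe sets. On probe set 10517159, detected on 44 of 45 arrays, mandibular ectoderm read 8.03, 8.30 and 7.81 at E10.5, 6.30, 6.24 and 6.30 at E11.5, and 6.13, 6.07 and 6.15 at E12.5. Mandibular mesenchyme read 7.38, 7.24 and 7.14 at E10.5, 6.12, 6.34 and 6.11 at E11.5, and 5.81, 5.97 and 5.70 at E12.5. The E10.5 arrays stood clear of all later ones in both layers, whereas E11.5 and E12.5 arrays of a layer overlapped. The first step was -1.77 ± 0.15 in mandibular ectoderm and -1.15 ± 0.10 in frontonasal and mandibular mesenchyme. Over the 3 prominences of each layer the second was -0.21 ± 0.08 in ectoderm and -0.19 ± 0.08 in mesenchyme. In frontonasal and mandibular mesenchyme alone the means were 7.26 at E10.5, 6.11 at E11.5 and 5.80 at E12.5.

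Probe set 10508907 of Lin28a gave the same order at a signal close to background. It was detected on all 9 arrays of E10.5, on 15 of 18 at E11.5 and on 9 of 18 at E12.5. Mandibular ectoderm read 6.78, 6.71 and 6.54 at E10.5 and 3.70, 4.01 and 4.37 at E12.5, a difference of -2.65 ± 0.14. In mandibular mesenchyme, where 0 of 3 arrays detected it at E12.5, the level was at least 2.89-fold lower at E12.5 than at E10.5. Small differences at the late ages are thus measured near the limit of this probe set.

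Mycn stayed high longer than the genes above. In mandibular mesenchyme it read 9.58, 9.36 and 9.23 at E10.5, 9.13, 9.08 and 8.91 at E11.5, and 8.0, 8.12 and 7.95 at E12.5. In mandibular ectoderm it read 9.36, 9.28 and 9.34 at E10.5, 9.25, 9.14 and 9.10 at E11.5, and 8.67, 8.65 and 8.76 at E12.5. The E12.5 arrays were the low ones in both layers of this prominence. Over all ectoderm arrays E11.5 and E12.5 overlapped, with a lowest value of 8.91 at E11.5 and a highest of 9.07 at E12.5. In frontonasal and mandibular mesenchyme the steps were -0.33 ± 0.08 and -0.79 ± 0.08 and the total -1.12 ± 0.08, 2.17-fold. In mandibular ectoderm the total was -0.63 ± 0.12, 1.55-fold.

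Hmga2 changed little with age on either probe set. On probe set 10372796 the mesenchyme median was 10.27 at E10.5, 10.26 at E11.5 and 9.98 at E12.5, and the E12.5 minus E10.5 difference was -0.36 ± 0.07 in mesenchyme and -0.24 ± 0.10 in mandibular ectoderm. The ages overlapped in both layers. Probe set 10366645 lay between 4.67 and 5.57 on all arrays, was detected on 40 of 45, and its E12.5 minus E10.5 difference was -0.03 ± 0.13 in mesenchyme and -0.12 ± 0.18 in mandibular ectoderm. The files do not say how the 2 probe sets differ.

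The calls of the limma fit over all tested probe sets (adjusted p under 0.05) set the scale of these changes, and since the members were chosen with their age course known nothing is read from the counts. Of the 9 member probe sets, 7 were lower at E11.5 than at E10.5 in mesenchyme, where 11.3% of tested probe sets were lower, and 6 were lower at E12.5 than at E11.5, where 17.3% were. Between E12.5 and E10.5 the mesenchyme counts were 8 of 9 and 20.7%. In ectoderm, 6 of 9 were lower at E11.5 than at E10.5 in the mandibular prominence, with 6.95% of tested probe sets. There 7 of 9 were lower at E12.5 than at E11.5 over 3 prominences, with 16.8%, and 7 of 9 at E12.5 than at E10.5, with 12.7%. No member probe set was called higher in any of the 6. The authors' deposited table also holds q-values for age, which ran from 7.32e-25 for Lin28b to 0.967 for Hmga2 (10366645). Nothing is read from these either.

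The layers differed in how far the genes fell, and not all in the same direction. Lin28b and Mycn fell less in ectoderm, whereas Igdcc3 and Prtg fell more there. Over the 3 prominences of each layer, the change between E11.5 and E12.5 was -0.76 ± 0.07 in ectoderm and -1.32 ± 0.07 in mesenchyme for Lin28b, a difference between layers of 0.56 ± 0.10 (limma, adjusted p = 2.42e-05). For Mycn it was -0.31 ± 0.07 in ectoderm and -0.83 ± 0.07 in mesenchyme, a difference of 0.52 ± 0.10 (adjusted p = 5.62e-05). Igdcc3 changed by -1.64 ± 0.09 in ectoderm and -1.08 ± 0.09 in mesenchyme, a difference of -0.55 ± 0.13 (adjusted p = 0.00114), and Prtg by -0.69 ± 0.06 in ectoderm and -0.36 ± 0.06 in mesenchyme, a difference of -0.33 ± 0.09 (adjusted p = 0.00484). These are 4 of the 9 member probe sets, and 23.9% of all tested probe sets were called in this comparison.

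Over the longer span in the mandibular prominence, 5 of the 9 were called, and 29.5% of all. Lin28b fell by 1.15 ± 0.17 less in ectoderm (adjusted p = 1.39e-06) and Mycn by 0.73 ± 0.17 less (adjusted p = 0.000739). Prtg (-0.70 ± 0.15, adjusted p = 0.000553) and Sall4 (-0.71 ± 0.21, adjusted p = 0.0111) fell further in ectoderm. Lin28a did so on probe set 10508907 (-1.12 ± 0.19, adjusted p = 1.89e-05). At E12.5 this probe set was detected on 0 of 3 mandibular mesenchyme and 2 of 3 mandibular ectoderm arrays. The fall of Lin28a may thus be larger than measured in both layers, and the size of their difference is uncertain. Its other probe set gave -0.50 ± 0.21 (adjusted p = 0.0657), which did not pass here but did without the 3 arrays that stood apart (-0.50, adjusted p = 0.0147), without the frontonasal groups (adjusted p = 0.0353), with only the groups compared (adjusted p = 0.0392) and with array weights (-0.52, adjusted p = 0.00926). Igdcc3 gave -0.23 ± 0.22 here, which did not pass (adjusted p = 0.492). All 9 of these calls between layers, 4 over the shorter and 5 over the longer span, held under each alternative run, among them leaving out each of the 45 arrays, the 3 arrays that stood apart, and the frontonasal groups. In the authors' deposited table the q-value for age by layer was 9.01e-09 for Lin28b, 1.18e-05 for Mycn and 0.00936 for Lin28a (10508907), but 0.885 for Igdcc3, 0.474 for Prtg and 0.0711 for Sall4.

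**Figure D2:**
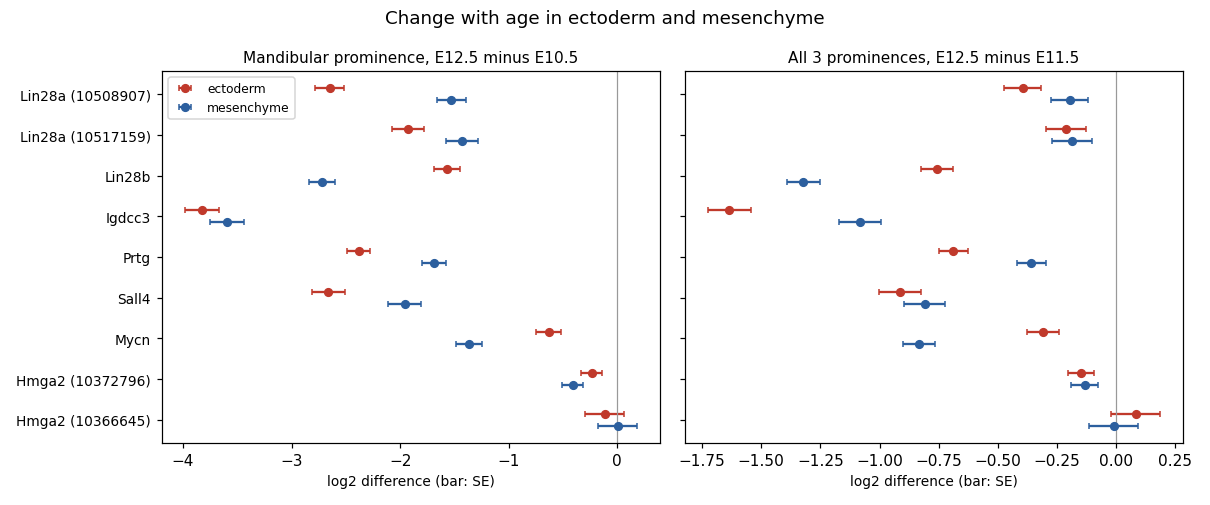
Log2 difference between ages for each probe set (rows), in ectoderm (red, above) and mesenchyme (blue, below it), with bars for the standard error of the fit. Left, mandibular E12.5 minus E10.5, where Lin28b stands at -1.57 in ectoderm and -2.72 in mesenchyme; right, E12.5 minus E11.5 over the 3 prominences, where Igdcc3 stands at -1.64 in ectoderm and -1.08 in mesenchyme.

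The order of the layers for Lin28b differed between the ages. In the mandibular prominence its ectoderm minus mesenchyme difference was -0.75 ± 0.12 at E10.5, -0.17 ± 0.12 at E11.5 and 0.40 ± 0.12 at E12.5. At E12.5 the difference was 0.44 ± 0.12 in the frontonasal and 0.49 ± 0.12 in the maxillary prominence, and every ectoderm array (6.29 to 6.71) lay above every mesenchyme array (5.85 to 6.20). Mycn at E12.5 was likewise higher in ectoderm, by 0.86 ± 0.12 in the frontonasal, 0.76 ± 0.12 in the maxillary and 0.67 ± 0.12 in the mandibular prominence. Its E12.5 values were 8.37 to 9.07 in ectoderm and 7.85 to 8.38 in mesenchyme, so the layers met at 1 array of each. The low ectoderm array, at 8.37, was frontonasal replicate 3, 1 of the 3 that stood apart.

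Averaged over the 7 combinations of age and prominence with both layers, Lin28a and Mycn were higher in ectoderm. Lin28a averaged 4.63 in ectoderm and 4.19 in mesenchyme on probe set 10508907, a difference of 0.44 ± 0.05 (adjusted p = 1.4e-09), and 6.61 against 6.19 on probe set 10517159, a difference of 0.42 ± 0.06 (adjusted p = 1.96e-08). Mycn averaged 9.03 in ectoderm and 8.61 in mesenchyme (0.42 ± 0.04, adjusted p = 1.07e-10). The layers differed for most of the transcriptome, 69.6% of tested probe sets, and 6 of 9 member probe sets were called, 5 higher and 1 lower in ectoderm. The other 3 calls were small: Sall4 0.14 ± 0.06 (adjusted p = 0.0284), Prtg 0.09 ± 0.04 (adjusted p = 0.0469) and Hmga2 (10372796) -0.10 ± 0.04 (adjusted p = 0.0179). The call of Sall4 was lost when any 1 of 4 arrays was left out (adjusted p = 0.051 to 0.0575) and with array weights (adjusted p = 0.0552), and that of Hmga2 with array weights (adjusted p = 0.0555). That of Prtg was lost when any 1 of 25 arrays was left out, with a replicate block (adjusted p = 0.0517) and without the frontonasal groups, where the difference was 0.06 (adjusted p = 0.271). Lin28b gave 0.03 ± 0.04 (adjusted p = 0.536), and Igdcc3 0.05 ± 0.06 (adjusted p = 0.485). Hmga2 (10366645) gave -0.12 ± 0.07 (adjusted p = 0.114), and -0.15 without the 3 arrays that stood apart (adjusted p = 0.0291).

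The layer difference of Lin28a varied between ages and prominences. On probe set 10508907 mandibular ectoderm read 6.78, 6.71 and 6.54 and mandibular mesenchyme 5.20, 5.50 and 5.30, a difference of 1.34 ± 0.14. On this probe set the mandibular difference was 0.28 ± 0.14 at E11.5. At E12.5 the measured difference was 0.22, with overlapping values of 3.70 to 4.37 in mandibular ectoderm and 3.75 to 3.88 in mandibular mesenchyme. There 2 of 3 ectoderm and 0 of 3 mesenchyme arrays detected it, so the value bounds the difference in neither direction. Probe set 10517159 gave 0.79 ± 0.15 at E10.5, 0.09 ± 0.15 at E11.5 and 0.29 ± 0.15 at E12.5 in the mandibular prominence. At E12.5 its difference was -0.07 ± 0.15 in the maxillary and 0.82 ± 0.15 in the frontonasal prominence, where the array at 6.97 is replicate 3 of frontonasal ectoderm, 1 of the 3 that stood apart.

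The 15 groups were placed in order of their means for each member probe set. How often neighbours are apart was not counted over all probe sets, so nothing is read from the counts. Of the 14 neighbouring pairs, the arrays did not overlap in 4 for Lin28a 10508907, 3 for Lin28a 10517159, 4 for Lin28b, 2 for Igdcc3, 2 for Prtg, 3 for Sall4, 4 for Mycn, 2 for Hmga2 10372796 and 0 for Hmga2 10366645. Mandibular ectoderm E10.5 came first for both Lin28a probe sets, clear of the next group, and also for Prtg. Mandibular mesenchyme E10.5 came first for Lin28b and Mycn, and frontonasal mesenchyme E10.5 for Igdcc3 and Sall4. An E12.5 group came last for all of these, frontonasal mesenchyme for Lin28b, Mycn and Lin28a 10517159, mandibular ectoderm for Igdcc3, Prtg and Sall4, and mandibular mesenchyme for Lin28a 10508907. Hmga2 10372796 had both its highest group, maxillary mesenchyme at 10.52, and its lowest, frontonasal mesenchyme at 9.67, at E12.5.

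Hmga2 had the smallest adjusted p of the members for prominence. In E12.5 mesenchyme, probe set 10372796 read 9.68, 9.70 and 9.64 in the frontonasal, 10.51, 10.52 and 10.52 in the maxillary and 10, 9.98 and 9.98 in the mandibular prominence. The 3 groups were apart from each other, with the maxillary one highest. Averaged over E11.5 and E12.5, frontonasal mesenchyme was the lowest: frontonasal minus maxillary was -0.61 ± 0.07 (adjusted p = 7e-09) and frontonasal minus mandibular -0.41 ± 0.07 (adjusted p = 1.01e-05). The same order held in ectoderm, where frontonasal minus maxillary was -0.36 ± 0.07 (adjusted p = 0.000363) and frontonasal minus mandibular -0.20 ± 0.07 (adjusted p = 0.0339). The ectoderm values rest in part on the array that stood apart at E12.5, which read 9.49 against 10.01 and 9.88: without it frontonasal minus mandibular was -0.12 (adjusted p = 0.201). That call was lost when any 1 of 7 arrays was left out (adjusted p = 0.0518 to 0.201). Quantile normalization (adjusted p = 0.138), array weights (adjusted p = 0.269) and only the groups compared (adjusted p = 0.223) lost it as well.

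Between E11.5 and E12.5 Hmga2 took different courses in maxillary and mandibular mesenchyme. It changed by 0.25 ± 0.10 in the maxillary and by -0.42 ± 0.10 in the mandibular prominence, a difference of 0.67 ± 0.14 (adjusted p = 0.00236). Maxillary mesenchyme read 10.51, 10.52 and 10.52 at E12.5 and 10.35, 10.26 and 10.19 at E11.5, and mandibular mesenchyme 10, 9.98 and 9.98 at E12.5 and 10.53, 10.34 and 10.36 at E11.5. The 2 ages did not overlap in either prominence. It was the only member called in this comparison, which called 2.54% of all tested probe sets. For frontonasal minus mandibular in the same step 0 of 9 were called and 2.89% of all. Markers of other cells changed in this step as well. The summed signal of 6 skeletal muscle genes rose in both prominences. It was 639 to 779 at E11.5 and 1212 to 1977 at E12.5 in maxillary mesenchyme. In mandibular mesenchyme it was 2377 to 2678 and 7019 to 7955. The sum of 8 neuronal genes fell in the maxillary and rose in the mandibular prominence. It was 1506 to 2064 at E11.5 and 1033 to 1212 at E12.5 in maxillary mesenchyme. In mandibular mesenchyme it was 585 to 672 and 996 to 1027. The part of muscle and neuronal cells in the result was not tested.

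Mycn and Sall4 also differed between mesenchymes, in opposite directions. Mycn was lower in frontonasal mesenchyme, with a difference of -0.44 ± 0.08 from maxillary (adjusted p = 8.02e-05) and of -0.30 ± 0.08 from mandibular mesenchyme (adjusted p = 0.00637). At E11.5 its arrays read 8.51, 8.43 and 8.61 in the frontonasal, 9.20, 9.13 and 9.06 in the maxillary and 9.13, 9.08 and 8.91 in the mandibular prominence, so that frontonasal was the low one with no overlap. At E12.5 they read 7.99, 8.01 and 7.85 in the frontonasal and 8.0, 8.12 and 7.95 in the mandibular prominence, which overlapped. Frontonasal minus mandibular was thus -0.07 ± 0.12 at E12.5 and -0.52 ± 0.12 at E11.5. The change of 0.45 ± 0.17 between these ages did not pass (adjusted p = 0.182), but did without the 3 arrays that stood apart (adjusted p = 0.0117). Sall4 was higher in frontonasal than in mandibular mesenchyme by 0.47 ± 0.11 (adjusted p = 0.000997). At E10.5, outside that average, it read 8.74, 8.83 and 8.74 in frontonasal and 8.02, 8.05 and 7.75 in mandibular mesenchyme, with no overlap. Its difference was 0.69 ± 0.15 at E11.5 and 0.24 ± 0.15 at E12.5. Prtg was lower in maxillary than in mandibular mesenchyme (-0.37 ± 0.08, adjusted p = 0.000554), and lower in frontonasal than in mandibular mesenchyme (-0.21 ± 0.08, adjusted p = 0.0445), the second a call lost when any 1 of 10 arrays was left out and with a replicate block (adjusted p = 0.0506).

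In all, 4 of 9 member probe sets were called between frontonasal and mandibular mesenchyme, where 20.3% of tested probe sets were called, 1 of 9 between maxillary and mandibular (9.98%), and 2 of 9 between frontonasal and maxillary (18.8%). With 9 probe sets, each call moves these shares a great deal. Between maxillary and mandibular mesenchyme Mycn (0.14 ± 0.08, adjusted p = 0.424) and Hmga2 10372796 (0.19 ± 0.07, adjusted p = 0.0698) did not pass, but did without the 3 arrays that stood apart (0.20 each, adjusted p = 0.0172 and 0.0205). Frontonasal mesenchyme also carried more epithelial and neural signal, as given above, and the pluripotency and neural gene Sox2 averaged 8.49 and 8.57 there at E11.5 and E12.5 and 5.35 and 5.11 in mandibular mesenchyme. The part of these cells in the prominence differences was not tested.

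**Figure D3:**
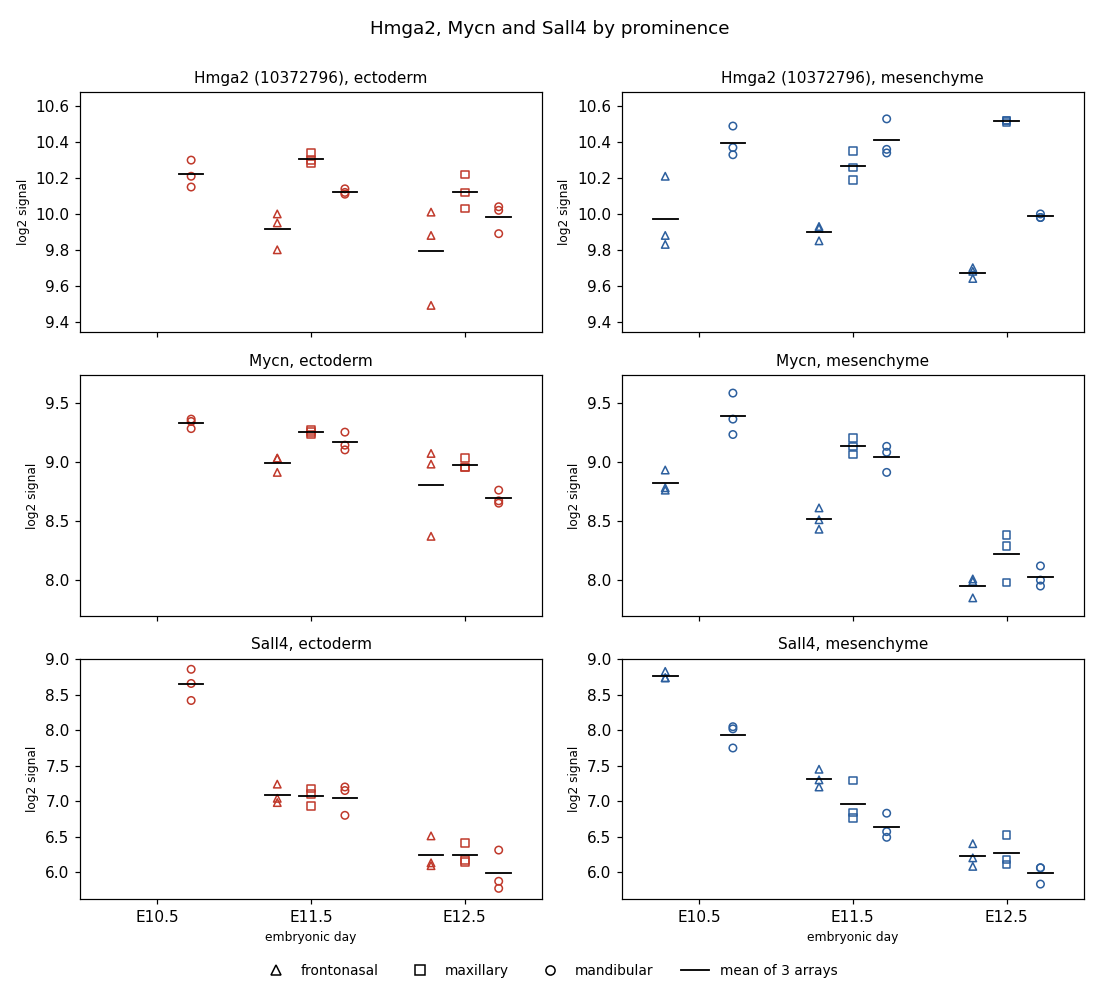
Log2 signal (y axis) of Hmga2 probe set 10372796, Mycn and Sall4 by embryonic day (x axis) and prominence (symbols), ectoderm left and mesenchyme right, each point an array and each bar the mean of 3. In E12.5 mesenchyme Hmga2 lies between 9.64 and 9.70 in the frontonasal, at 10.51 to 10.52 in the maxillary and at 9.98 to 10 in the mandibular prominence.

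In ectoderm, Igdcc3 was higher in the frontonasal than in the mandibular prominence. Its arrays read 8.47, 8.15 and 8.42 in frontonasal and 7.85, 7.52 and 7.81 in mandibular ectoderm at E11.5, and 6.50, 6.57 and 6.91 against 6.03, 6.19 and 6.29 at E12.5, with no overlap at either age. The difference was 0.56 ± 0.11 (adjusted p = 0.000343). Both Lin28a probe sets were higher as well, by 0.28 ± 0.10 (10508907, adjusted p = 0.0322) and 0.38 ± 0.10 (10517159, adjusted p = 0.00845). Neither Lin28a call held without the 3 arrays that stood apart (adjusted p = 0.114 and 0.11), whereas that of Igdcc3 did. Nor did that of Hmga2 10372796 (-0.09, adjusted p = 0.418), while Lin28b, at 0.12 ± 0.08 (adjusted p = 0.264), became 0.26 without them (adjusted p = 0.0234). With Hmga2, 4 of 9 were called here, against 23.1% of all tested probe sets. Lin28a (10508907) was also 0.42 ± 0.10 above maxillary ectoderm (adjusted p = 0.00256), which with Hmga2 makes 2 of 9, against 9.24%. Both calls were lost with only the groups compared (adjusted p = 0.0816 and 0.0874). Other cells differed between these ectoderms at the earlier age: the 7 neural tube and olfactory genes summed to 1670 to 2885 in frontonasal, 779 to 1007 in maxillary and 773 to 938 in mandibular ectoderm at E11.5, and 8 neuronal genes to 1738 to 2297, 734 to 1405 and 772 to 1191 in the same order. At E12.5 the first sum was 462 to 621 in frontonasal, 745 to 827 in maxillary and 565 to 717 in mandibular ectoderm. Their part in the differences was not tested.

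Between maxillary and mandibular ectoderm, 0 of the 9 member probe sets passed in limma, where 5.04% of all did. At an unadjusted p under 0.05, 4 of the 9 passed (Lin28b, Igdcc3, Mycn and Hmga2 10372796), and 14.8% of all. With array weights the count was 3 at the adjusted threshold, and 8.31% of all. Without the 3 arrays that stood apart Lin28b (0.24, adjusted p = 0.0237) and Mycn (0.18, adjusted p = 0.0348) passed, against adjusted p = 0.0937 and 0.269 with them.

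For 3 probe sets the difference between frontonasal and mandibular tissue depended on the layer. Frontonasal minus mandibular was larger in ectoderm than in mesenchyme by 0.55 ± 0.16 for Igdcc3 (adjusted p = 0.0107), by 0.49 ± 0.15 for Lin28a 10517159 (adjusted p = 0.0167) and by 0.35 ± 0.11 for Prtg (adjusted p = 0.0212), which is 3 of 9 against 18.5% of all. That of Lin28a did not hold without the 3 arrays that stood apart (0.33, adjusted p = 0.0628). That of Prtg did not hold without frontonasal ectoderm E12.5 replicate 3 alone (0.29, adjusted p = 0.0529) or with median centring (0.27, adjusted p = 0.0851). Mycn (0.27 ± 0.12, adjusted p = 0.101) and Hmga2 10372796 (0.21 ± 0.10, adjusted p = 0.117) did not pass, but did without the 3 arrays, at 0.40 (adjusted p = 0.000569) and 0.32 (adjusted p = 0.00546), and without that replicate 3 alone, at 0.38 (adjusted p = 0.00297) and 0.29 (adjusted p = 0.0129). Sall4 went the other way and did not pass, but did with median centring (-0.39, adjusted p = 0.0438) and with array weights (-0.34, adjusted p = 0.0477). For maxillary minus mandibular, Prtg was the 1 of 9 called (0.37 ± 0.11, adjusted p = 0.0288), against 6.68%, and its call was lost when any 1 of 9 arrays was left out. Igdcc3 gave 0.48 ± 0.16 (adjusted p = 0.0567), and 0.51 without the 3 arrays (adjusted p = 0.0278).

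Over the 15 group means Igdcc3, Prtg, Sall4 and Lin28b had like courses, and Mycn and Hmga2 did not join them. Pearson's r was 0.97 between Igdcc3 and Prtg, 0.96 between Igdcc3 and Sall4, 0.94 between Prtg and Sall4, and 0.94 between Igdcc3 and Lin28b. Lin28a correlated at 0.69 and 0.76 with Lin28b and at 0.88 and 0.89 with Prtg, and its probe sets at 0.94 with each other. Mycn reached 0.72 with Lin28b and stayed at 0.53 to 0.62 with the others apart from Hmga2. Hmga2 (10372796) had its highest value, 0.45, with Mycn, and -0.02 with the other Hmga2 probe set. These 36 values describe groups that share age, layer and tissue, and the members were chosen with that age course known.

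**Figure D4:**
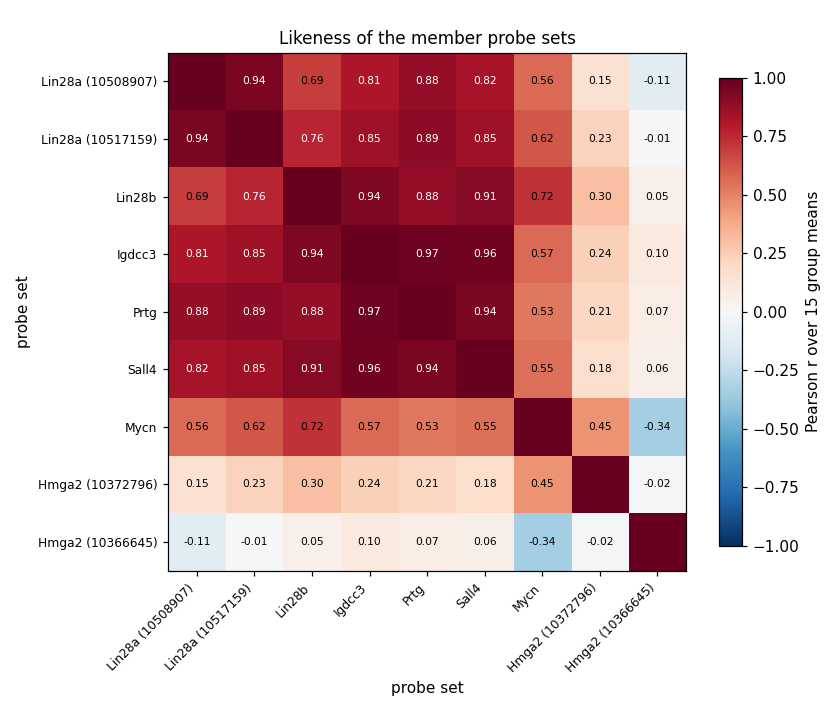
Pearson's r between the 9 member probe sets over the 15 group means, in red for positive and blue for negative values. Igdcc3, Prtg, Sall4 and Lin28b form a block at 0.88 to 0.97, and Mycn and both Hmga2 probe sets lie outside it.

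Among 9056 probe sets that carry 1 gene name, the closest courses over the 15 group means were as follows. Igdcc3 and Prtg were closest to each other and to Sall4, followed by Flywch1 (0.95) for Igdcc3 and Ptpmt1 (0.94) for Prtg. Sall4 was closest to Igdcc3, Dnmt3b (0.96), a de novo DNA methyltransferase, and Trim71 (0.95), an RNA-binding protein and known let-7 target. Lin28b was closest to Mif (0.98), Nubp1 (0.97) and Rcc1 (0.97), and Mycn to Cenpo (0.92), Med9 (0.92) and Mms22l (0.91). Lin28a was closest to Gdap10 on both probe sets (0.93 and 0.91), with Lrrc27 (0.92) and Matn3 (0.91) on 10508907 and Atad3a (0.90) and Prtg (0.89) on 10517159. Hmga2 (10372796) was closest to Lhx6 (0.74), a homeobox gene of jaw mesenchyme, Eif2s2 (0.72) and Nrg3 (0.71), and Hmga2 (10366645) to Clec2l (0.76), Gbp3 (0.75) and Qprt (0.75). Ranking over the 45 arrays kept all 3 of these genes for no probe set, 2 of 3 for Igdcc3, Prtg, Sall4 and Hmga2 (10372796), and 1 or none for the others.

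The promoter of Lin28b is the 1 among the 6 that holds CACGTG, the sequence that MYC family proteins are known to bind. It is shown because MYCN is of that family. Lin28b and Mycn were both lower at E12.5 than at E10.5, but not in step. Between E10.5 and E11.5 Lin28b changed by -1.37 and Mycn by -0.33 in mesenchyme. The run has CACGTG in capitals, and also the letters of the CCAAT box read on the other strand, again from 250 bases before to 50 after the start.
Lin28b promoter, chr10:45470152-45470451, minus strand (GRCm38.p6): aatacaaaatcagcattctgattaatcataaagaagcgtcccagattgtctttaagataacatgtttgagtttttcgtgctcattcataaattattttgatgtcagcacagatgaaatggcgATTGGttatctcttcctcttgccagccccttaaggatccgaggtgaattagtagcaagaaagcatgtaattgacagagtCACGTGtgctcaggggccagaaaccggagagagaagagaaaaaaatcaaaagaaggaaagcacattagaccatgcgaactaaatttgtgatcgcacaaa
CACGTG begins 49 bases before the start. Of 32851 promoters, 7.15% hold CACGTG, 37.4% CCAAT and 13.6% TATAAA on either strand, and none of the 6 member windows holds TATAAA. A match of letters is not a binding site, and binding was not measured.

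Some other genes of the LIN28 and let-7 pathway declined between E11.5 and E12.5. The lists were chosen with earlier results of these data known, and only genes named in the authors' deposited table could be found. The shares of all, here and for the lists below, are over 14472 tested probe sets, of which 9395 have a row there. Shares among those 9395 were not computed, so the lists and the shares are not drawn from like sets. Of 13 LIN28 and microRNA processing partners 7 were found there, and 4 were lower at E12.5 than at E11.5 in each layer and 0 higher, against 16.8% of all tested probe sets lower in ectoderm and 17.3% in mesenchyme. Between E10.5 and E11.5, 1 of the 7 was lower in mandibular ectoderm, where 6.95% of all were, and 3 in mesenchyme, where 11.3% were. Their median between E11.5 and E12.5 was -0.19 in ectoderm and -0.22 in mesenchyme, where that of all tested probe sets was 0.01 and 0.02. Trim71 changed by -0.69 ± 0.10 in ectoderm and -0.76 ± 0.10 in mesenchyme, and by -1.11 ± 0.12 in mesenchyme between E10.5 and E11.5. Msi1, a neural progenitor RNA-binding protein, fell by 0.50 ± 0.07 in ectoderm. Msi2 fell by 0.25 ± 0.05 in mesenchyme and Ago2, which carries microRNAs to their targets, by 0.25 ± 0.06 in ectoderm.

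Of 25 genes reported as let-7 targets besides the members, 20 were found there. Between E11.5 and E12.5, 13 were lower and 1 higher in ectoderm, with a median of -0.25, and 11 lower and 3 higher in mesenchyme, with a median of -0.15. Of all tested probe sets 16.8% were lower and 11.9% higher in ectoderm, and 17.3% lower and 19.4% higher in mesenchyme. The medians of all were 0.01 in ectoderm and 0.02 in mesenchyme. Arid3b, a DNA-binding protein of embryonic tissue, changed by -0.88 ± 0.07 in ectoderm and -0.87 ± 0.07 in mesenchyme, Igf2bp1, an RNA-binding protein of embryonic growth, by -0.54 ± 0.06 in mesenchyme and the TGF-beta receptor gene Tgfbr1 by -0.60 ± 0.05 in ectoderm. Thbs1, which encodes the matrix protein thrombospondin, rose by 0.79 ± 0.07 in mesenchyme. Between E10.5 and E11.5 the same list was split, 3 lower and 3 higher in mandibular ectoderm and 8 lower and 5 higher in mesenchyme. Over all, 6.95% were lower and 11.4% higher in mandibular ectoderm in that step, and 11.3% lower and 14.8% higher in mesenchyme.

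Relatives of the members took other courses in part. In the step between E11.5 and E12.5 that follows, 16.8% of all tested probe sets were lower and 11.9% higher in ectoderm, and 17.3% lower and 19.4% higher in mesenchyme. All 4 relatives of Igdcc3 and Prtg found among 5 listed DCC and IGDCC receptors rose in mesenchyme between E11.5 and E12.5: Dcc, a netrin receptor, by 1.00 ± 0.11, Igdcc4 by 0.71 ± 0.07, and the hedgehog co-receptors Boc by 0.74 ± 0.06 and Cdon by 0.40 ± 0.05. Igdcc4 averaged 8.16 in mandibular mesenchyme at E12.5 and 6.94 at E10.5. In ectoderm 1 of the 4 rose and 1 fell. Of the MYC network (10 listed, 5 found), whose Myc and Mycl are also in the let-7 target list, Myc rose by 0.51 ± 0.08 in mesenchyme, where Mycn fell, and Mycl fell by 0.24 ± 0.06 in ectoderm. These counts, 1 of 5 in each layer, are close to the shares of all. Between E11.5 and E12.5 Myc went from 8.52 to 8.60 in frontonasal mesenchyme, from 7.68 to 8.16 in maxillary and from 7.79 to 8.79 in mandibular mesenchyme. Of SALL family and pluripotency-associated genes (17 listed, 14 found) 4 fell and 1 rose in ectoderm and 3 fell and 1 rose in mesenchyme. Sox2 (-1.34 ± 0.15), Sall1 (-0.73 ± 0.08) and Sall2 (-0.42 ± 0.05) fell in ectoderm, and Klf4 rose in mesenchyme (0.46 ± 0.11). The fall of Sox2 was largest in frontonasal ectoderm, from 9.16 to 6.71, against 9.14 to 8.16 in maxillary and 9.27 to 8.68 in mandibular ectoderm. Sox2 is also among the 7 neural tube and olfactory genes, and the part of such cells was not tested. The SALL and pluripotency count lower in mesenchyme, 3 of 14, is close to the share of all. Of HMG box, HMGA and HMGN chromatin proteins (8 listed, 4 tested) 2 fell and 1 rose in ectoderm and 3 fell in mesenchyme. Hmgb3 (-0.59 ± 0.06), Hmgn5 (-0.59 ± 0.13) and Hmgb2 (-0.39 ± 0.09) were those in mesenchyme, and Hmgn3 rose in ectoderm (0.34 ± 0.10).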

How the data were processed

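RNA of 45 samples in 15 groups of 3 was measured on 1 Affymetrix Mouse Gene 1.0 ST array each. The deposited log2 values were made by the authors with RMA in Affymetrix Power Tools (version 1.91 per the submitters' processing notes, 1.8.0 per the file headers of the detection table), with genome build mm9. The deposited detection p-values and the q-values of the authors' deposited table, from a model of age, prominence and layer, were used as given. Groups came from the labels, and gene names from the authors' table, of whose symbols 8452 were current, 853 were updated through RefSeq synonyms, 93 kept and 228 empty.

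A group-means model was fitted with limma 3.58.1 (R 4.3.3) to the 14472 of 28944 probe sets whose variance exceeded the median, with Benjamini-Hochberg adjustment over all of them and a threshold of 0.05. The fit was tested on simulated data. Standard errors are those of the fit, and p-values measure the spread between separately pooled samples. The number of arrays, 3 per group, limits the precision. Python 3.11.15 made the other summaries.

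The members and lists were chosen with earlier results of these data known. Besides the members, the text names up to 4 genes per list past the threshold with the largest difference between E11.5 and E12.5 in either layer, and the 3 genes with the highest Pearson's r to each member. The lists were LIN28 and microRNA processing partners, let-7 targets, the MYC network, SALL family and pluripotency-associated genes, DCC and IGDCC receptors, HMG chromatin proteins, and markers of 8 cell types. Alternatives were no filter, a detection filter, quantile normalization, median centring, a trended robust fit, array weights, a replicate block, only the groups compared, and leaving out each array. Leaving out the 3 arrays that stood apart, and the frontonasal groups, was chosen after seeing the data. Genes of the lists with no row in the authors' table were not analysed here.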

Additional observations from a re-analysis of the deposited data

Results flagged for a closer look

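The change of 4 genes between E11.5 and E12.5 differed between ectoderm and mesenchyme by a direct test of the difference. As ectoderm minus mesenchyme on the log2 scale it was 0.56 for Lin28b, 0.52 for Mycn, -0.55 for Igdcc3 and -0.33 for Prtg. Over E10.5 to E12.5 in the mandibular prominence the same difference was 1.15 for Lin28b, 0.73 for Mycn, -1.12 for Lin28a (10508907), -0.70 for Prtg and -0.71 for Sall4. Of the mandibular E12.5 arrays, 0 of 3 in mesenchyme and 2 of 3 in ectoderm detected Lin28a (10508907), so the size of its difference is uncertain. Ectoderm arrays carried more mesenchymal signal after E10.5 than at it, as given above, and the part of that in these values was not tested.

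Hmga2 (10372796) differed between maxillary and mandibular mesenchyme in its change between E11.5 and E12.5, by 0.67. The frontonasal minus mandibular difference was larger in ectoderm than in mesenchyme by 0.49 for Lin28a (10517159), 0.55 for Igdcc3 and 0.35 for Prtg. For maxillary minus mandibular the difference between ectoderm and mesenchyme was 0.37 for Prtg.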

How the results depend on the processing

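No value of a called member changed its sign under any alternative, and a member called neither way was counted as unchanged. The number of member probe sets called moved by more than 1.5 times in prominence comparisons only. Between maxillary and mandibular mesenchyme it was 1, and became 2 with trended and robust moderation or median centring, 3 with repeated quantile normalization or without the 3 arrays that stood apart, 5 with array weights, and 1 to 3 when 1 array was left out. For maxillary minus mandibular between the layers it was 1, and became 2 with trended and robust moderation, array weights or without the 3 arrays, 0 with median centring, and 0 to 2 when 1 array was left out. Between frontonasal and mandibular ectoderm it was 4, and became 2 with quantile normalization or without the 3 arrays, 1 with only the groups compared, and 1 to 4 when 1 array was left out. Between frontonasal and maxillary ectoderm it was 2, became 0 with only the groups compared and 2 to 4 when 1 array was left out, 4 without frontonasal ectoderm E12.5 replicate 2. Between maxillary and mandibular ectoderm it was 0, and became 3 with array weights, 2 without the 3 arrays and 1 without frontonasal ectoderm E11.5 replicate 2 (0 to 1). For frontonasal minus mandibular in the mesenchyme step it was 0, and became 1 with quantile normalization, array weights, without the 3 arrays or without frontonasal ectoderm E12.5 replicate 3 (0 to 1). For frontonasal minus mandibular between the layers it was 3, and became 5 with quantile normalization and 6 with array weights. The cause of these moves was not tested.

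Over all probe sets, the number called in mesenchyme E12.5 minus E10.5 was 6660, 10246 with no variance filter and 10272 with a detection filter, where more probe sets are tested. With array weights it became 2583 between maxillary and mandibular mesenchyme (1445 otherwise), 4108 between frontonasal and maxillary mesenchyme, 1202 between maxillary and mandibular ectoderm, 1163 and 888 for the frontonasal and maxillary mesenchyme steps against mandibular, and 1863 for maxillary minus mandibular between the layers. Between frontonasal and mandibular ectoderm it was 931 with only the groups compared, 1705 without the 3 arrays, and 1918 to 5054 when 1 array was left out. With only the groups compared, 367 were called between frontonasal and maxillary ectoderm and 694 for the frontonasal mesenchyme step, and without the 3 arrays 656 for that step and 1522 for maxillary minus mandibular between the layers. The replicate block, with replicate number as a term, lost 2 calls, Prtg between layers (adjusted p = 0.0517) and Prtg between frontonasal and mandibular mesenchyme (adjusted p = 0.0506), and no other. In 21 pairs of same-numbered ectoderm and mesenchyme samples of 1 age and prominence, deviations from the group means correlated at -0.42 to 0.36. The own number gave the highest correlation in 10. These values do not show whether same-numbered samples came from the same embryos, and the numbers were not taken as pairs. Signal near background limits Lin28a (10508907) after E10.5.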

Other observations

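Other cells were present on the arrays in amounts that differed between layers. The summed signal of 6 erythroid genes was 672 to 9349 on ectoderm arrays and 8858 to 14770 on mesenchyme arrays. That of 5 endothelial genes was 128 to 527 in ectoderm and 1187 to 2239 in mesenchyme, and that of 5 leukocyte genes 223 to 352 and 324 to 496. Neuronal genes, 8 measured of 9 listed, summed to 663 to 2297 in ectoderm and 418 to 2698 in mesenchyme, with frontonasal mesenchyme at E12.5 the highest.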
